A study of Arabidopsis thaliana with 8 samples.

Results

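QQS, AT5G04380, EXLA3, AT1G29090 and AT2G16005 are 5 Arabidopsis thaliana genes whose array signal differed from wild type in the same direction in gbf1, gbf1 hy5 and gbf1 hyh seedlings. They were chosen by that pattern of log2 differences among 13356 genes with a probe set tied to them alone, on an array of 22746 tested probe sets, and each of the 5 has 1 such probe set. The probe sets are 256940_at for QQS (AT3G30720), 245703_at for AT5G04380, 252557_at for EXLA3 (AT3G45960), 260890_at for AT1G29090 and 263098_at for AT2G16005. QQS, AT5G04380 and EXLA3 were lower in the mutants, and AT1G29090 and AT2G16005 were higher. Because these differences from wild type chose the genes, they are given as a description without a test, and only the differences between mutants are tested.

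The seedlings were whole, 4 days old and raised on medium with 1% sucrose at 22 °C under continuous white light (20 µmol m-2 s-1), after a cold treatment of the plated seeds for 4 days at 4 °C. The groups were wild type of the Col-0 ecotype, the gbf1 mutant, the gbf1 hy5 mutant and the gbf1 hyh mutant, with 2 biological replicates each, and all 6 mutant samples therefore carry gbf1. The sources used here do not give the alleles, and an ecotype is stated for wild type alone. The mutations and any difference of background or seed stock between wild type and the mutant lines therefore cannot be told apart. The same holds among the mutant lines. No gbf1-free hy5 or hyh sample is among the 8 arrays, so effects of HY5 or HYH loss on their own cannot be read from them.

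The bZIP transcription factors GBF1, HY5 and HYH bind DNA elements with an ACGT core and adjust gene expression while seedlings adapt to light. HY5 promotes light-dependent development, HYH is its closest relative, and GBF1 can act with or against them depending on the gene. The 5 genes come from unrelated families. QQS is an orphan gene, found in Arabidopsis thaliana without recognisable relatives in other species. It encodes a small protein linked to the balance of starch and protein, and it is also known as a locus whose expression and DNA methylation vary among natural accessions, a mark that was not measured here.

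Signals are given as log2 values, on a scale where 0 is the probe set's median across all 8 arrays. Differences are between the log2 means of genotypes of 2 arrays each, and SE is the standard error of such a difference. These values hold no absolute level. Whether a low signal lay near background therefore cannot be read from them, and levels of different genes cannot be compared. The mean of 45 bacterial spike-in control probe sets lay between -0.275 and 0.215 on 6 arrays, but at 0.814 for gbf1 replicate 2 and 0.739 for gbf1 hyh replicate 2. Replicate arrays differed with an SD of 0.366 in gbf1 and 0.350 in gbf1 hyh, against 0.236 in wild type and 0.239 in gbf1 hy5. Whether this touches the results below was checked by leaving out this pair of arrays. HYH was the mutated gene used here with a probe set tied to it alone in the probe table. Whether other probe sets, such as those without a gene name, measure GBF1 or HY5 was not examined. HYH was at -2.03 and -1.78 in gbf1 hyh, at -1.01 and -0.85 in gbf1 hy5, at 1.08 and 0.85 in wild type, and at 1.69 and 1.94 in gbf1.

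QQS was the gene of the 5 with the widest separation. Its log2 signal was 4.40 and 3.33 in wild type, 0.36 and 0.17 in gbf1, -0.35 and -0.48 in gbf1 hy5, and -0.17 on both gbf1 hyh arrays. Both wild-type arrays lay above all 6 mutant arrays, with an empty gap of 2.97 between the groups. Its mean differed from wild type by -3.601 (SE 0.286) in gbf1, -4.28 in gbf1 hy5 and -4.04 in gbf1 hyh, which is 12.1-, 19.5- and 16.4-fold lower. Of all 22746 probe sets, 1 had a larger difference between wild type and the mean of the mutants. The wild-type replicates themselves lay 1.06 apart, a larger distance than for 99.9% of probe sets, whose median was 0.141. The size of the QQS difference thus depended on which wild-type array was used: against gbf1 it was -3.07 without wild type replicate 1 and -4.13 without wild type replicate 2.

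AT5G04380 belongs to the SABATH family of methyltransferases, which place a methyl group on small carboxylic acids such as salicylic or jasmonic acid. Its own substrate is not named in the sources used here. Its signal was 2.37 and 2.15 in wild type, -0.21 and 0.05 in gbf1, -0.10 and -0.11 in gbf1 hy5, and -0.05 and 0.12 in gbf1 hyh. Both wild-type arrays were high, and the 6 mutant arrays fell within 0.328 of each other. That is a narrower range than the median of 0.558 over all probe sets. The difference from wild type was -2.34 (SE 0.156) in gbf1, -2.36 in gbf1 hy5 and -2.22 in gbf1 hyh, which is 5.07-, 5.15- and 4.67-fold lower.

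EXLA3 encodes an expansin-like protein, related to the expansins that loosen plant cell walls. Its signal was 0.95 and 1.23 in wild type, 0.06 and 0.17 in gbf1, -0.06 and -0.27 in gbf1 hy5, and -0.19 and -0.11 in gbf1 hyh. The groups did not overlap, and the empty gap of 0.771 between wild type and the mutants was the smallest among the 5 genes. The difference from wild type was -0.97 (SE 0.157) in gbf1, -1.25 in gbf1 hy5 and -1.24 in gbf1 hyh, or 1.96-, 2.39- and 2.36-fold lower. After quantile normalisation of the deposited values these differences were -1.22, -1.53 and -1.50, so the folds depend on that added step. EXLA3 was the gene closest to the threshold that selected the set, and it was inside that threshold in 3 of 14 alternative analyses.

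AT1G29090 encodes a protein of the papain family of cysteine proteases. Its signal was lowest in wild type, at -1.74 and -2.27. It was 0.02 and 0.09 in gbf1, 1.44 and 0.97 in gbf1 hy5, and -0.22 and -0.02 in gbf1 hyh. The mutants formed 2 levels, with both gbf1 hy5 arrays above the other 4 mutant arrays. The mean was above wild type by 2.06 (SE 0.215) in gbf1, 3.21 in gbf1 hy5 and 1.89 in gbf1 hyh, which is 4.18-, 9.26- and 3.71-fold. A further quantile normalisation was run on the deposited values, which were already processed by RMA and centred per probe set. These differences were then 2.89, 3.95 and 2.69, so the folds depend on that added step. The range of AT1G29090 over the 6 mutant arrays, 1.65, exceeded that of 97.4% of probe sets.

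AT2G16005 encodes a protein with an ML domain, a fold that binds lipids. Its signal was -2.25 and -2.34 in wild type, 0.53 and 0.03 in gbf1, 0.52 and 0.00 in gbf1 hy5, and 0.00 and -0.69 in gbf1 hyh. The wild-type arrays agreed closely and the mutant replicates did not, lying 0.498 apart in gbf1, 0.520 in gbf1 hy5 and 0.693 in gbf1 hyh. In each mutant the lower of both arrays was replicate 2. The mean was above wild type by 2.58 (SE 0.268) in gbf1, 2.56 in gbf1 hy5 and 1.95 in gbf1 hyh, or 5.96-, 5.88- and 3.86-fold. Without the pair of arrays with high spike-in signal it was 2.82 in gbf1 and 2.296 in gbf1 hyh. After the same quantile normalisation of the centred values it was 3.68 in gbf1, 3.66 in gbf1 hy5 and 3.17 in gbf1 hyh. These folds too depend on that added step.

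**Figure D1:**
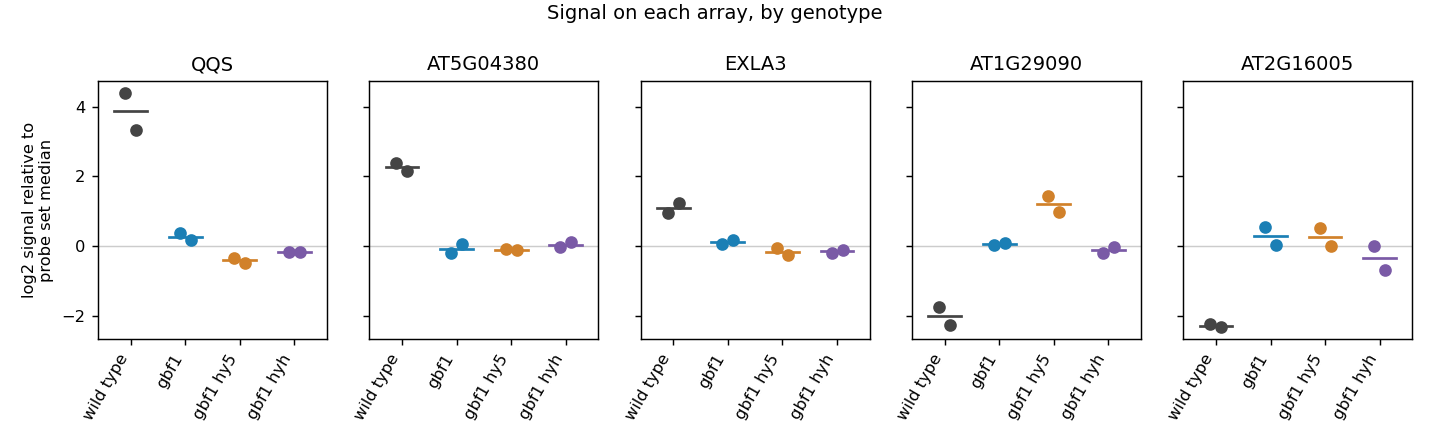
Log2 signal relative to the probe set median (y axis) on each of the 8 arrays for the 5 genes (panels), by genotype (x axis). Points are arrays, with replicate 1 on the left, and short lines are genotype means (n = 2). In every panel both wild-type points lie outside the range of the 6 mutant points, and in the AT1G29090 panel both gbf1 hy5 points (1.44 and 0.97) lie above the other mutant points.

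The 5 genes differed in how tightly the mutants grouped. The range over the 6 mutant arrays was below the median of all probe sets for 2 of them, AT5G04380 (0.328) and EXLA3 (0.445), and above it for QQS (0.846), AT2G16005 (1.22) and AT1G29090 (1.65). Over the whole array 1560 probe sets, 6.86%, had both wild-type arrays outside the range of the 6 mutant arrays, so that separation alone is common. All probe sets were also ranked by the size of the difference between wild type and the mean of the mutants. QQS was at rank 2, AT1G29090 at rank 11, AT2G16005 at rank 12, AT5G04380 at rank 14 and EXLA3 at rank 73. By the empty gap between wild-type and mutant arrays, QQS was at rank 2, AT5G04380 at 3, AT2G16005 at 4, AT1G29090 at 5 and EXLA3 at 13. These ranks restate the choice of the genes.

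**Figure D2:**
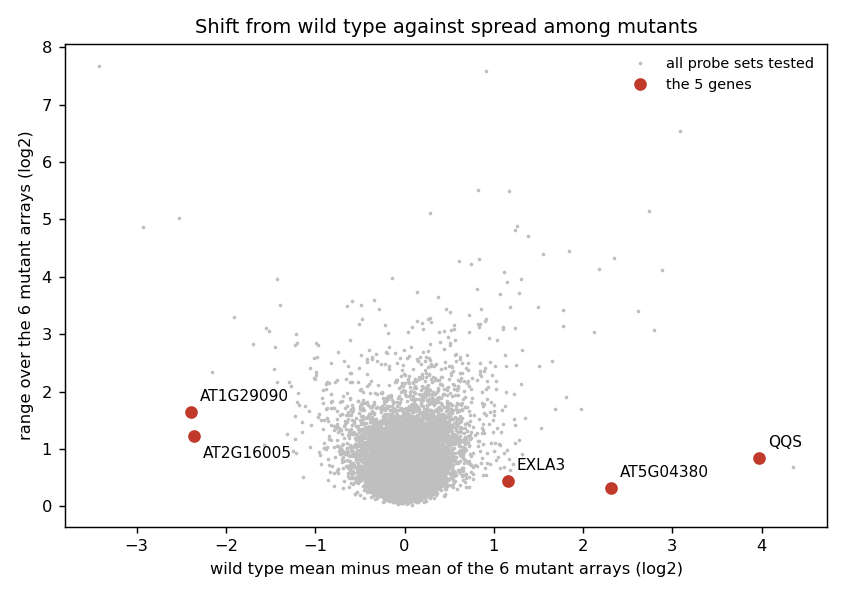
Each grey point is 1 of 22746 probe sets, with the wild type mean minus the mean of the 6 mutant arrays on the x axis and the range over those 6 arrays on the y axis (both log2). The 5 genes are red. QQS lies at 3.97 and AT5G04380 at 2.31, with ranges of 0.846 and 0.328. AT1G29090 lies at -2.39 and AT2G16005 at -2.36, with ranges of 1.65 and 1.22. EXLA3 lies nearest the middle of the 5, at 1.15 with a range of 0.445. The positions along the x axis restate the differences that chose the genes.

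The 3 comparisons with wild type share the same 2 wild-type arrays, so a value particular to those arrays enters all of them. A probe set was called where limma gave an adjusted p (Benjamini-Hochberg over 22746 probe sets) under 0.05. In all, 11 probe sets (0.0484%) were called in the same direction in all 3 mutants, 8 lower and 3 higher. Only 6 of the 11 carry the name of 1 gene, while 4 carry none and 1 carries several. The sixth gene besides the 5 described was AT5G35940, a jacalin-type lectin gene, which differed from wild type by -1.24 in gbf1, -1.38 in gbf1 hy5 and -1.01 in gbf1 hyh. It was at 1.06 and 1.17 in wild type and between -0.53 and 0.20 on the mutant arrays.

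Among probe sets tied to 1 gene, just inside the threshold, by the largest adjusted p of the 3 limma comparisons, were EXLA3 (0.042) and AT5G35940 (0.038). Just outside it, among the same probe sets, were AT2G30540 (0.06) and AT4G15700 (0.0667), both glutaredoxin genes and both below wild type. In gbf1, gbf1 hy5 and gbf1 hyh the differences were -0.94, -1.41 and -0.99 for AT2G30540 and -1.06, -1.57 and -1.32 for AT4G15700. The probe set with the largest difference of all 11 names no gene in the probe table, 246211_at, chosen after its values were seen. Its signal was 4.196 and 4.38 in wild type and between -0.29 and 0.39 on the 6 mutant arrays, with differences from wild type of -4.37, -4.48 and -4.19 in the 3 mutants. The probe set tied to several genes, 254820_s_at, is shared by AT4G12520 and AT4G12510 and was higher than wild type by 1.23, 1.14 and 1.05.

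The mutants were compared with each other, 15 tests in all for the 5 genes. The compared lines differ in HY5 or HYH, and any difference of background or seed stock between them cannot be told apart from that. These comparisons leave out the wild-type means. The mutant means also entered the choice of the set, as did the spread estimated in the same limma fit. The tests between mutants are therefore not independent of that choice. AT1G29090 was the gene that differed. It rose by 1.15 (SE 0.215, 95% interval 0.66 to 1.63) in gbf1 hy5 against gbf1, at an adjusted p of 0.0193 in limma, or 2.21-fold. It was also higher in gbf1 hy5 than in gbf1 hyh, by 1.32 (SE 0.215, 95% interval 0.84 to 1.81, adjusted p = 0.0132 in limma), or 2.50-fold. Both gbf1 hy5 arrays lay above both arrays of the other mutant in each case. Between gbf1 hyh and gbf1 it differed by -0.18 (95% interval -0.66 to 0.31, adjusted p = 0.796 in limma).

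Both calls of AT1G29090 kept their direction in all 14 alternatives and rested on the small number of arrays. The call against gbf1 ended without either gbf1 array or either gbf1 hy5 array, at an adjusted p of 0.0551 without gbf1 replicate 1, 0.069 without gbf1 replicate 2, 0.174 without gbf1 hy5 replicate 1 and 0.054 without gbf1 hy5 replicate 2 in limma. The call against gbf1 hyh ended without gbf1 hy5 replicate 1 (adjusted p = 0.133 in limma) and without either array of gbf1 hyh (0.0524 and 0.0516). With gbf1 replicate 2 and gbf1 hyh replicate 2 both left out, AT1G29090 stayed called, at 1.18 against gbf1 (adjusted p = 0.042 in limma) and at 1.42 against gbf1 hyh (adjusted p = 0.0299).

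In gbf1 hy5 against gbf1, 1 of the 5 genes was called, beside 4.45% of all probe sets. For QQS the difference was -0.68 (95% interval -1.33 to -0.036), which did not pass over all probe sets (adjusted p = 0.259 in limma). Both gbf1 hy5 arrays lay below both gbf1 arrays, and the adjusted p over the alternatives ran from 0.0671 to 0.624. EXLA3 differed by -0.28 (95% interval -0.64 to 0.070, adjusted p = 0.425 in limma). AT5G04380 differed by -0.024 (95% interval -0.38 to 0.33) and AT2G16005 by -0.019 (95% interval -0.62 to 0.59), with neither call nor separation of the arrays. The intervals leave room for differences of up to 1.30-fold for AT5G04380 and 1.54-fold for AT2G16005.

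In gbf1 hyh against gbf1, none of the 5 genes was called by limma, beside 2.51% of all probe sets, and 1 had an unadjusted p under 0.05. That gene was AT2G16005, at -0.63 (SE 0.268, 95% interval -1.23 to -0.020, adjusted p = 0.331 in limma). Its gbf1 replicate 2 at 0.03 was close to gbf1 hyh replicate 1 at 0.00, so the groups barely separated. QQS differed by -0.44 (95% interval -1.08 to 0.21, adjusted p = 0.561 in limma), EXLA3 by -0.27 (95% interval -0.62 to 0.086) and AT5G04380 by 0.12 (95% interval -0.23 to 0.47).

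In gbf1 hy5 against gbf1 hyh, AT1G29090 was the 1 gene called, beside 2.77% of all probe sets. AT2G16005 differed by 0.61 (95% interval 0.0011 to 1.21, adjusted p = 0.353 in limma), QQS by -0.25 (95% interval -0.89 to 0.40), AT5G04380 by -0.14 (95% interval -0.49 to 0.21) and EXLA3 by -0.016 (95% interval -0.37 to 0.34). For each gene the order of the genotype means was therefore firm only in part. QQS ran down from wild type through gbf1 and gbf1 hyh to gbf1 hy5, and no pair of neighbouring mutants differed beyond the threshold. AT5G04380 ran down from wild type through gbf1 hyh and gbf1 to gbf1 hy5, and EXLA3 through gbf1 and gbf1 hyh to gbf1 hy5, with no step between mutants past the threshold. AT2G16005 ran up from wild type through gbf1 hyh and gbf1 hy5 to gbf1, again with no such step. AT1G29090 ran up from wild type through gbf1 hyh and gbf1 to gbf1 hy5, and the step from gbf1 to gbf1 hy5 passed.

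**Figure D3:**
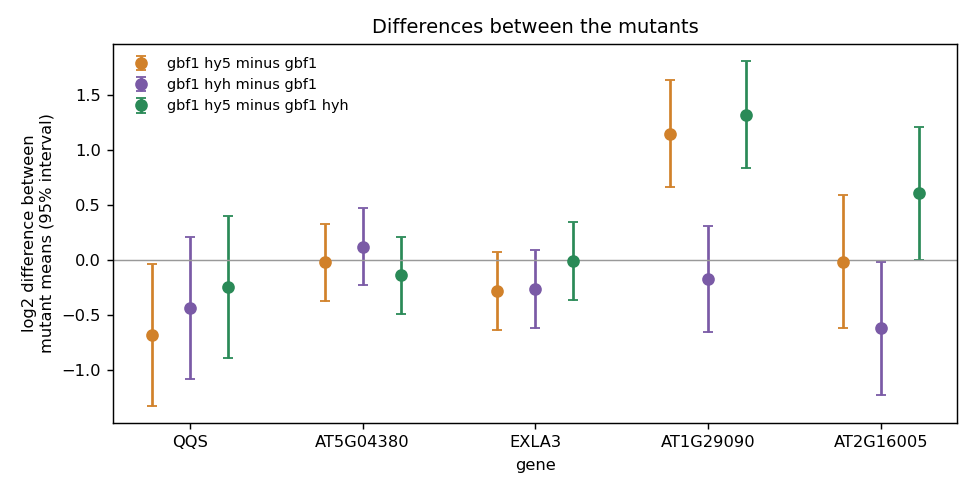
Log2 differences between mutant means (y axis) for the 5 genes (x axis), with points for the estimates and bars for the 95% intervals of the limma fit of all 8 arrays (not adjusted for multiple tests). For AT1G29090 both comparisons with gbf1 hy5 lie above 0, at 1.15 and 1.32, while the intervals of AT5G04380 and EXLA3 include 0 in all 3 comparisons.

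Across the 6 mutant arrays, which leave out the wild-type contrast, the genes did not move as 1 group. Pearson's r was 0.822 between QQS and EXLA3, -0.859 between AT5G04380 and AT2G16005, and -0.631 between QQS and AT1G29090, and between -0.336 and 0.423 for the other 7 pairs. These are descriptions of 6 arrays that also share genotype and normalisation. The genes did not follow HYH closely either. Over the 8 arrays r with HYH lay between -0.393 and 0.553, and HYH was at its highest in gbf1, where QQS, AT5G04380 and EXLA3 were already low. With the mean of the spike-in controls r lay between -0.232 and 0.087.

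The patterns most like each gene were sought among 2020 probe sets tied to 1 gene with a range of at least 1 over the 8 arrays. Pearson's r over the 8 arrays, mainly set by the 2 wild-type arrays, named 3 per gene. For QQS they were AT5G04380 (0.979), EXLA3 (0.947) and AT4G15700 (0.940). For AT5G04380 they were QQS, EXLA3 (0.948) and AT5G35940 (0.937), and for EXLA3 they were AT3G28270 (0.965), AT4G15700 (0.962) and AT5G04380.

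AT1G29090 had other partners. AT5G20790 (r = 0.984), AT3G56200 (0.965) and AT4G23680 (0.952) followed it, each with its largest difference from wild type in gbf1 hy5, at 1.56, 1.30 and 1.28. For AT2G16005 the likeness was lower, with AT1G29090 at 0.902, AT3G02480 at 0.889 and AT3G46490 at 0.872. AT3G02480 is a gene of the late embryogenesis abundant family, and its signal was above wild type by 2.87 in gbf1, 2.07 in gbf1 hy5 and 1.52 in gbf1 hyh. By rank correlation only some of these stayed near the top, since the order within the mutant arrays then counts more. AT5G04380 was at place 246 for QQS (rho = 0.619), while AT4G15700 was at place 5 (rho = 0.952).

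The measured genes next to the 5 in the chromosomal order differed less from wild type than the gene they lie beside. NAMT1, a nicotinate methyltransferase gene, lies beside AT5G04380, itself of the same family. NAMT1 differed from wild type by -0.03, -0.08 and -0.18 in gbf1, gbf1 hy5 and gbf1 hyh, and AT5G04390 on the other side by 0.12, -0.08 and 0.02. EXLA1 lies beside EXLA3 and differed by -0.19, -0.38 and -0.29, and AT3G45950 on the other side by -0.04, 0.11 and -0.01. AT1G29080, a papain-type protease gene beside AT1G29090, differed by -0.0034, 0.10 and 0.07. None of these 5 neighbours was called in limma in any comparison with wild type, where 0.418%, 2.18% and 1.28% of all probe sets were called in gbf1, gbf1 hy5 and gbf1 hyh. The neighbours of QQS (AT3G30705 and GDU6) and of AT2G16005 (AT2G15980 and AT2G16015), and AT1G29100 beside AT1G29090, were not analysed here, as the probe table ties no probe set to any of them alone.

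Relatives of the 5 genes were examined for the same shift. Of 23 other SABATH genes, 15 were measured, and 1 was called in each comparison with wild type, always lower, beside 0.418%, 2.18% and 1.28% of all probe sets in gbf1, gbf1 hy5 and gbf1 hyh. In gbf1 and gbf1 hyh it was AT5G38020, which fell by 1.14 (SE 0.190) in both, at adjusted p = 0.0477 and 0.0239 in limma. In gbf1 hy5 it was AT3G21950, which fell by 1.08 (SE 0.223, adjusted p = 0.045 in limma), while AT5G38020 differed by -0.34. AT3G21950 differed by -0.44 in gbf1 and -0.97 in gbf1 hyh, without passing (adjusted p = 0.647 and 0.096 in limma). Both genes were thus below wild type in all 3 mutants. The call of AT5G38020 in gbf1 was present in 3 of 14 alternatives and ended without any 1 of the 8 arrays. Its call in gbf1 hyh was present in 7, and ended without either wild-type array, either gbf1 hy5 array or gbf1 hyh replicate 2. The call of AT3G21950 ended without either array of wild type or gbf1 hy5 (adjusted p up to 0.321 in limma). The median over the 15 genes was 0.02 in gbf1, 0.05 in gbf1 hy5 and 0.12 in gbf1 hyh, beside 0.01, 0.02 and 0.03 over all probe sets.

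The 3 other expansin-like genes were all measured. EXLA1 and EXLA2 were not called in any of the 6 comparisons. EXLB1 rose in gbf1 hy5, where EXLA3 was low, by 1.67 against wild type (SE 0.189, adjusted p = 0.00286), by 1.81 against gbf1 (adjusted p = 0.00115) and by 1.35 against gbf1 hyh (adjusted p = 0.00653), all in limma. In gbf1 and gbf1 hyh it differed from wild type by -0.15 and 0.32, without passing. These calls stand beside 2.18%, 4.45% and 2.77% of all probe sets. The call against gbf1 held in all 14 alternatives. That against wild type ended without wild type replicate 2 (adjusted p = 0.0551), and that against gbf1 hyh ended without either gbf1 hy5 array (adjusted p up to 0.08).

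Of 30 other papain-type protease genes, 17 were measured. In gbf1 hy5 and gbf1 hyh against wild type 1 was called each, beside 2.18% and 1.28% of all probe sets, and 1 in gbf1 hy5 against gbf1 hyh, beside 2.77%. In gbf1 hy5, 1 rose against wild type, CP1, by 2.15 (SE 0.260, adjusted p = 0.00365 in limma), and it was also higher than in gbf1 hyh by 1.85 (adjusted p = 0.00666). Like AT1G29090, CP1 therefore had its highest mean in gbf1 hy5. Its difference of 0.71 from gbf1 did not pass (adjusted p = 0.188), nor did that of 1.44 between gbf1 and wild type (adjusted p = 0.0667). The call against wild type ended without gbf1 hy5 replicate 2, and that against gbf1 hyh ended without either gbf1 hy5 array. AT1G02300, of the cathepsin B type, fell in gbf1 hyh by 1.67 (SE 0.316, adjusted p = 0.043 in limma), a call present in 5 of 14 alternatives. Its differences from wild type in the other mutants were -1.81 in gbf1 (adjusted p = 0.0582) and -1.10 in gbf1 hy5 (adjusted p = 0.141), which did not pass. The call ended without any 1 array other than gbf1 hyh replicate 1. The other 15 proteases passed in no comparison.

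Of 6 other ML-domain genes, 5 were measured and none was called by limma in any of the 6 comparisons, in which 0.418% to 4.45% of all probe sets were called. AT5G23830 and AT5G23840 had the largest differences from wild type, at 0.64 and 0.64 in gbf1, 0.35 and 0.21 in gbf1 hy5, and 0.47 and 0.56 in gbf1 hyh. AT2G16005, at 2.58, 2.56 and 1.95, lay well above them, but these differences are the ones that chose it.

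**Figure D4:**
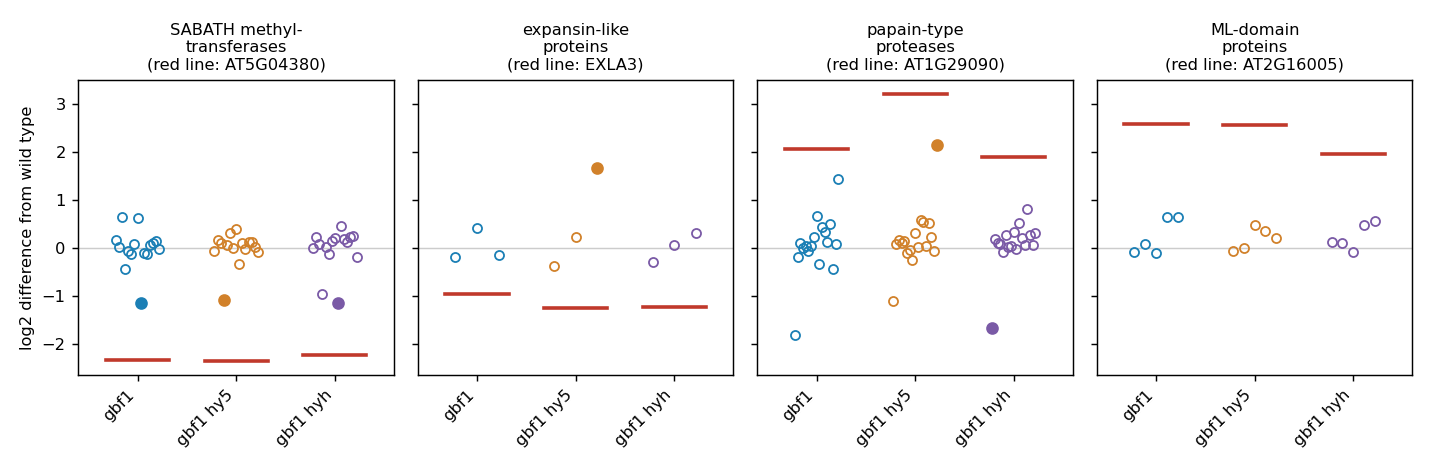
Log2 difference from wild type (y axis) in gbf1, gbf1 hy5 and gbf1 hyh (x axis) for the measured relatives of 4 of the genes. Filled circles were called by limma, open circles were not, and the red line is the gene named above each panel. Most circles lie near 0 while the red lines lie away from it, at -2.34 to -2.22 for AT5G04380 and 1.95 to 2.58 for AT2G16005. The red lines are the differences that chose these genes, so their distance from 0 restates that choice.

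QQS has no relatives to compare, and genes of starch synthesis and breakdown were examined because of its known link to starch. Of 39 such genes 6 were measured, so most of the pathway was not analysed here. None of the 6 was called by limma in any mutant against wild type, beside 0.418%, 2.18% and 1.28% of all probe sets. Against gbf1, 2 were called in gbf1 hy5 and 1 in gbf1 hyh, beside 4.45% and 2.51%. PWD, a kinase that phosphorylates starch, differed from wild type by -1.23 in gbf1 (adjusted p = 0.129). It rose against gbf1 in gbf1 hy5 by 1.52 (SE 0.268, adjusted p = 0.014) and in gbf1 hyh by 1.34 (adjusted p = 0.0348). SBE2.2, a starch branching enzyme, fell by 0.83 in gbf1 hy5 against gbf1 (SE 0.178, adjusted p = 0.035). The first PWD call ended without gbf1 replicate 2 or either gbf1 hy5 array. The second was present in 6 of 14 alternatives, ending without either wild-type array, either gbf1 hy5 array, gbf1 replicate 2 or gbf1 hyh replicate 1. The SBE2.2 call ended without gbf1 replicate 1, either gbf1 hy5 array or either wild-type array (adjusted p up to 0.218). DPE1, APL3, APL4 and AMY1 passed in no comparison.

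Whole seedlings hold several tissues, so a lower signal from fewer cells of a type and from less RNA per cell cannot be told apart. Both root markers were called in gbf1 against wild type. The root peroxidase genes AT1G30870 and AT3G49960 rose by 2.28 and 2.25 in gbf1 (adjusted p = 0.0027 and 0.00615 in limma). In gbf1 hy5 they differed from wild type by -0.17 and -0.04 and in gbf1 hyh by 0.80 and 0.72, without passing. EXPA18, a root-hair expansin gene and 1 of 2 root-hair markers measured of 4, rose by 1.98 in gbf1 and 1.08 in gbf1 hyh and was at 0.27 in gbf1 hy5. EXPA7, the other, was not called against wild type. It differed by 1.18 in gbf1 (adjusted p = 0.0933 in limma), 0.12 in gbf1 hyh and -0.008 in gbf1 hy5. The part of these marker differences in the values of the 5 genes was not tested. Of 3 measured green-tissue markers of 4, LHCB4.2 fell in gbf1 hy5 by 1.89 against wild type (adjusted p = 0.00113 in limma). LHCB4.1 and LHCB4.3 differed there by -0.38 and 0.22 and were not called, so the green-tissue markers did not move together. The 3 seed-tissue markers listed were not analysed here, since no probe set is tied to any of them alone.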

How the data were processed

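Transcript signals came from 8 Affymetrix arrays, 2 per genotype. The authors ran RMA in GeneSpring, per the series' design text, and no version of either is given per the submitters' processing notes. Deposited values are treated here as log2 signals because RMA normally returns that base, and each probe set has a median of 0 (within 1e-06) across arrays, so they were centred before deposit. Of 22810 probe sets, 64 AFFX controls were left out. The probe table links 13513 of the remaining 22746 to 1 gene, 503 to several and 8730 to none. A RefSeq gene table (TAIR10.1) holding 13436 of the first group gave names and gene order. Sequences were not used here.

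One limma model (version 3.58.1, R 4.3.3; lmFit, contrasts.fit, eBayes) of 4 genotype means took in all 8 arrays, with 4 residual and 5.124 prior degrees of freedom. Benjamini-Hochberg adjustment ran over the 22746 probe sets. The script was tested on simulated data. The number of arrays limits the precision. The members and gene lists were chosen with earlier results of these data known. Genes named are the 5, HYH, the 3 most like each, neighbours, up to 3 called genes of each list per comparison, and those next to the selection threshold. Alternatives were quantile normalisation of the deposited centred values, a robust prior, array weights, the compared genotypes alone, a replicate block, and left-out arrays. What separates the biological replicates is not stated, so p-values measure the spread between these samples.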

Additional observations from a re-analysis of the deposited data

Results flagged for a closer look

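AT1G29090 differed between the double mutants. Adding hy5 to gbf1 went with a change of 1.15 and adding hyh with a change of -0.18. The difference between these changes, 1.32 (SE 0.215, adjusted p = 0.0132 in limma), is the comparison of gbf1 hy5 with gbf1 hyh given above. It is therefore no further test, and the call rested on the small number of arrays. With 1 array left out the difference ran from 1.09 to 1.55. Both gbf1 hy5 arrays (1.44 and 0.97) lay above both gbf1 hyh arrays (-0.22 and -0.02). Both effects share the gbf1 arrays, and HYH signal was also below wild type in gbf1 hy5. With 2 arrays per genotype no group could be examined for a sample far from the others.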

How the results depend on the processing

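The counts of genes called between mutants were 1, 0 and 1 of 5 in gbf1 hy5 against gbf1, gbf1 hyh against gbf1 and gbf1 hy5 against gbf1 hyh, and were the same under quantile normalisation, a robust prior, array weights, the compared genotypes alone, the replicate block and without gbf1 replicate 2 and gbf1 hyh replicate 2, the pair with high spike-in signal. With 1 array left out they ran from 0 to 1, stayed at 0, and ran from 0 to 1. Where a left-out array leaves 1 sample in a genotype, that sample is assumed to vary like the others.

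Whether the replicate numbers pair the samples is not stated and was not settled here. Deviations of same-numbered arrays correlated between -0.114 and 0.336, below 0 in 2 of 6 pairs of genotypes. The highest value was between gbf1 and gbf1 hyh. In every genotype the mean of the spike-in controls was higher on replicate 2 than on replicate 1. With the replicate block the counts over all probe sets moved from 1012 to 1224, 571 to 654 and 631 to 736 for these comparisons.

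Some small differences that were never called changed sign, and the causes were not tested. AT5G04380 was at 0.10 in gbf1 hy5 against gbf1 without gbf1 replicate 2 and without that pair, and at -0.0084 in gbf1 hyh against gbf1 without gbf1 replicate 1. EXLA3 in gbf1 hy5 against gbf1 hyh was at 0.088 without gbf1 hy5 replicate 2, and at 0.025 without gbf1 hyh replicate 2 and without that pair. AT2G16005 in gbf1 hy5 against gbf1 was at 0.23 without gbf1 replicate 1 and 0.24 without gbf1 hy5 replicate 2. With 1 array left out, AT5G04380 ranged from -0.15 to 0.10 and from -0.0084 to 0.25 in these comparisons, EXLA3 from -0.12 to 0.088 and AT2G16005 from -0.28 to 0.24.

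QQS and AT5G04380 were called in all 3 mutants against wild type in all 14 alternatives, AT1G29090 in 13 (not without wild type replicate 2), AT2G16005 in 12 (not without either wild-type array) and EXLA3 in 3, a count added after the data were seen. EXLA3 was lost without any 1 array. Quantile normalisation moved the differences of AT2G16005 from wild type from 2.58, 2.56 and 1.95 to 3.68, 3.66 and 3.17 in gbf1, gbf1 hy5 and gbf1 hyh, and those of AT1G29090 from 2.06, 3.21 and 1.89 to 2.89, 3.95 and 2.69. Those of EXLA3 moved from -0.97, -1.25 and -1.24 to -1.22, -1.53 and -1.50. The planned promoter motif search could not be run, since no sequence table was used here. A filter on dim probe sets has no meaning for centred values.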
